A study of Mus musculus with 8 samples.

Results

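Untreated mice of the NAIL-ΔNFκB line were compared with untreated wild-type (WT) mice in whole distal colon. The comparison used 4 of the 8 libraries of the study: all those from mice that received no dextran sulfate sodium (DSS), with 2 mice in each group. All mice were C57BL/6, 8 to 10 weeks old. The WT untreated and ΔNFκB untreated groups drank plain water throughout, and the remaining 4 mice, 2 WT and 2 ΔNFκB, had 3% DSS in their water for 4 days and then 4 days without it. Those DSS libraries were fitted together with the untreated ones, so they entered the count filter, the scaling and the estimate of the spread. They also gave the genotype effect after DSS and the test of whether the genotype effect differed with and without DSS. Genes were kept by a filter on low counts, and 17522 of the 30454 gene symbols with a count were tested. The labels name the altered locus, NAIL, but not the bases that differ, nor whether the mice of a group were littermates.

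NAIL is a long noncoding RNA described as a regulator of the p38 and NF-κB pathways, through the phosphatase Wip1 (gene Ppm1d). NF-κB is a family of transcription factors that switches on inflammatory and survival genes, and the healthy colon keeps it at a low level. The colon epithelium renews itself from crypts: stem cells and their dividing daughters at the crypt base move upward and become absorptive colonocytes, mucus-secreting goblet cells and hormone-secreting enteroendocrine cells. Dividing cells copy their DNA in S phase, when histone mRNAs are made, and separate the copies in mitosis, which is driven by cyclin B and its kinase Cdk1.

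Total counts were 12553588 and 16935961 in the WT libraries and 12954920 and 12790179 in the ΔNFκB libraries. Of 6 markers fixed as a check of colon identity, 5 were tested, and all 5 were abundant: the mucin Muc2 stood at 4871 to 8426 CPM (counts scaled to a common library size, with TMM factors for composition), the carbonic anhydrase Car1 at 872 to 1644, the chloride exchanger Slc26a3 at 1168 to 2415, the water channel Aqp8 at 189 to 650 and the posterior patterning factor Hoxb13 at 218 to 242. Y-linked transcripts summed to 0.0797 CPM in WT untreated replicate 1, which was read as female, and to 218.7 to 240.3 CPM in the other 3 untreated mice, which were read as male. All 4 DSS mice were read as female. The 4 untreated libraries correlated as closely between the genotypes as within them (Pearson r of log2 CPM across genes, 0.968 to 0.978 over all pairs; genes are not independent replicates). Bulk tissue was sequenced, so fewer cells of a type and less RNA per cell cannot be told apart.

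In untreated colon, ΔNFκB mice had lower levels of mitotic and histone transcripts than WT mice, and these made up most of the genes that differed. Of 17522 genes, 68 differed by genotype (0.388%) at an adjusted p under 0.05 (edgeR's quasi-likelihood F test over the 4 group means, two-sided, Benjamini-Hochberg adjusted over all genes tested). Of these, 61 were lower in ΔNFκB mice (0.348% of genes) and 7 were higher (0.0399%). The 61 lower genes comprised 21 histone genes and 40 others, most of them genes of mitosis. Their median log2 fold change was -1.03, against 0.025 over all genes tested. All 68 genes had groups that did not overlap, a weak criterion by itself, since both ΔNFκB libraries lay below both WT libraries for 22.7% of all genes and above both for 22.5%. An unadjusted p under 0.05 was likewise common, at 2832 genes or 16.2% of all tested (8.22% lower and 7.94% higher), and the counts at that level given below for groups of genes are to be read against it.

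The calls rest on a small number of mice. With 2 mice against 2 an exact permutation test gives no p below 0.333, so each call borrows its error from the 4 groups and from all genes. When the 4 untreated libraries were fitted alone, edgeR called 0 genes, with 1925 at an unadjusted p under 0.05. Among the 61 lower genes, Mettl7a2 and Mettl7a3 left out, the lowest adjusted p was then 0.188. Leaving out ΔNFκB untreated replicate 1 or any of the 4 DSS libraries also gave 0 calls in edgeR (1959 and 2479 to 2546 genes at an unadjusted p under 0.05). Leaving out ΔNFκB untreated replicate 2 gave 27 calls, 15 higher and 12 lower, with 10 of the 61 lower genes and 0 of the 7 higher genes among them. Leaving out WT untreated replicate 2 gave 5 calls, 4 higher and 1 lower, with 0 of the 61 and 0 of the 7. Leaving out the female WT replicate 1, so that only males were compared without DSS, gave 200 calls, 189 of them lower, which included 55 of the 61 genes. A term for sex in the model gave 176 calls and kept 49 of the 61. In every one of these fits all 61 genes stayed lower with an unadjusted p under 0.05, and their median log2 fold change lay between -0.95 and -1.16. That direction was largely fixed by the choice of genes, since all 61 had groups that did not overlap, and is no sign of stability. Without the female WT mouse that median was -1.10, and with the sex term it was -1.07. Sex varied within the WT untreated group only. The fit with the sex term therefore also rested on WT untreated replicate 2 alone for WT mice, and is not a separate check.

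**Figure D1:**
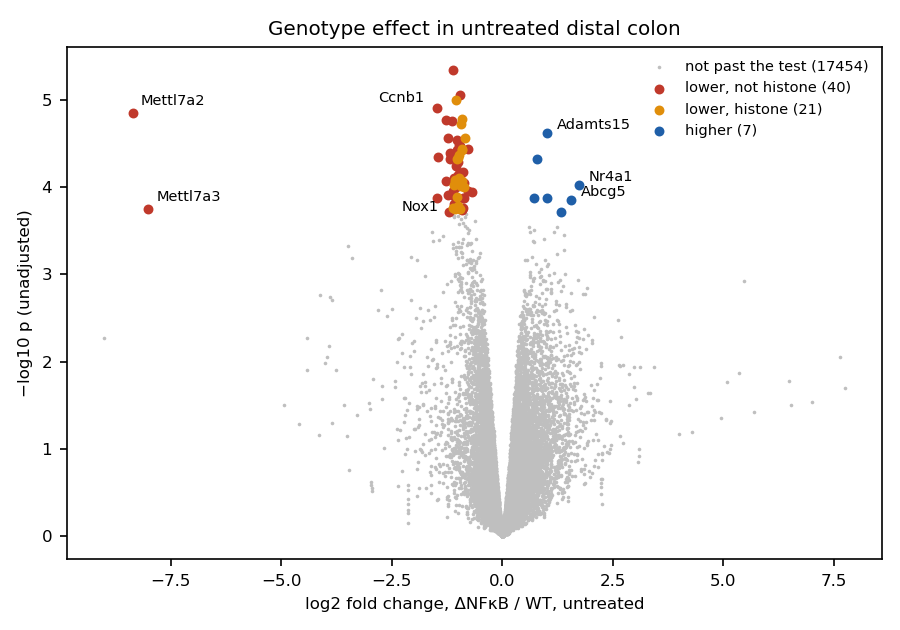
Each point is 1 of the 17522 genes tested; the x axis is the log2 fold change of ΔNFκB over WT in untreated colon and the y axis is minus log10 of the unadjusted p. The 61 lower genes, 21 of them histone genes, form a narrow band near a log2 fold change of -1, with Mettl7a2 and Mettl7a3 far to the left because they had no counts in ΔNFκB mice, and the 7 higher genes lie between 0.72 and 1.73.

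The promoters of 5 of the lower genes are shown because the lower genes shared letters there that were rarer among promoters at large. Each line gives the RefSeq promoter in build GRCm38.p6 (the same coordinates as mm10), 250 bases before to 50 after the annotated start, 5′ to 3′ along the gene. Capitals mark 3 motifs on either strand: the CCAAT box (CCAAT, or ATTGG on the other strand), which binds NF-Y, the cell cycle homology element (TTTGAA, or TTCAAA), which binds the MuvB complexes that time mitotic genes, and the TATA box (TATAAA, or TTTATA).
Ccnb1, chr13:100786437-100786736, minus strand: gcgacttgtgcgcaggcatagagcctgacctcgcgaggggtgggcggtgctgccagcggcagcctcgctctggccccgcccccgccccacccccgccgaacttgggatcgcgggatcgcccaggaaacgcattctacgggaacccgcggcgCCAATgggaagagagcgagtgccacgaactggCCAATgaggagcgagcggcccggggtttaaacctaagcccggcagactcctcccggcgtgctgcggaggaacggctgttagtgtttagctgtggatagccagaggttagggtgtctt
Ccnb2, chr9:70421505-70421804, minus strand: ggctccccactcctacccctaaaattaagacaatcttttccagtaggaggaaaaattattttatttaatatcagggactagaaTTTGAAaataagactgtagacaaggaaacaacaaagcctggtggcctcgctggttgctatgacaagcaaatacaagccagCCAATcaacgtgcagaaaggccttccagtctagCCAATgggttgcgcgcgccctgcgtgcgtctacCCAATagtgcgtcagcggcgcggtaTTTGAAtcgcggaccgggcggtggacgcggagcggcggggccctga
Cdk1, chr10:69352863-69353162, minus strand: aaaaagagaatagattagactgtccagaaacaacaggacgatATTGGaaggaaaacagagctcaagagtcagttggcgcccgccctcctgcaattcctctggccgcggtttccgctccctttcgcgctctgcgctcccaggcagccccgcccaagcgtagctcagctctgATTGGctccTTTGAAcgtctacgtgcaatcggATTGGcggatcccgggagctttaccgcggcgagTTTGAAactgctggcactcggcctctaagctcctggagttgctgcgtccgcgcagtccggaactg
Hist1h3c (RefSeq H3c3), chr13:23745472-23745771, minus strand: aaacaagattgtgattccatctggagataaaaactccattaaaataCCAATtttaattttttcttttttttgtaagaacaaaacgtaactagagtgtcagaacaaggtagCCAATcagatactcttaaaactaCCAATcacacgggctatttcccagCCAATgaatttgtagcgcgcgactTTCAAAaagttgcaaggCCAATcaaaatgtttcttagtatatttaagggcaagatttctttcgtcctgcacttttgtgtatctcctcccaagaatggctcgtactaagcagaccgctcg
Hist1h3e (RefSeq H3c6), chr13:23562336-23562635, minus strand: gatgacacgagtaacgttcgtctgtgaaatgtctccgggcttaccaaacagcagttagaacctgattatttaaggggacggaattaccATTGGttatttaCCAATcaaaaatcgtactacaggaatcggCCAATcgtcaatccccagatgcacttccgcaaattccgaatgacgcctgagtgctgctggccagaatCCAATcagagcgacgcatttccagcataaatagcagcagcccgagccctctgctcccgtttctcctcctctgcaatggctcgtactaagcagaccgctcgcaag

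The promoter of Ccnb1 held 2 CCAAT boxes and none of the other motifs. Those of Ccnb2 and Cdk1 each held 3 CCAAT boxes and 2 cell cycle homology elements, Hist1h3c held 5 CCAAT boxes and 1 homology element, and Hist1h3e held 4 CCAAT boxes. No motif overlapped a different one in these 5 promoters. Among the 40 lower genes that are not histones, 34 matched a RefSeq promoter, and 79.4% of those held a CCAAT box, as did 94.7% of the 19 matched histone promoters and 37.4% of all 32851 promoters in the table. The share was as high, at 81.8%, in the 11 matched promoters of the cholesterol and fatty acid synthesis genes described further on. The cell cycle homology element was present in 17 of the 34 promoters, 63.2% of the histone set and 17.9% of all promoters, and in 1 of the 11. TATAAA was present in 57.9% of the histone set, 8.82% of the 34 and 13.6% of all promoters. Neither of the histone promoters shown holds it, so they are not typical of their set in this respect. The core letters of an NF-κB site, GGANTTTCC, were found in 0 of the 34, 0 of the 19 and 0 of the 4 matched promoters of the higher genes, and in 1.25% of all promoters. A match of letters is a description of these 300-base windows, not evidence of binding.

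Cyclin B1 (Ccnb1), the cyclin that carries cells into mitosis, had the largest decrease among the called genes with counts in every library. Its counts were 656 and 815 in the WT libraries and 208 and 270 in the ΔNFκB libraries, or 52.4 and 54.7 CPM against 16.4 and 22.0. Both ΔNFκB libraries were below both WT libraries, and the log2 fold change was -1.48 ± 0.16 (SE), 2.79-fold lower (adjusted p 0.0298). Its partner kinase Cdk1 was at 36.9 and 47.9 CPM in WT mice and at 18.9 and 18.6 in ΔNFκB mice, a log2 fold change of -1.18 ± 0.15 (adjusted p 0.0298). Cdc25c, the phosphatase that activates Cdk1, was at 9.58 and 8.79 CPM against 3.15 and 3.50 (-1.46 ± 0.19, adjusted p 0.0298).

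Cyclin A2 (Ccna2), active from S phase to early mitosis, and cyclin B2 (Ccnb2) fell as well. Ccna2 was at 100.8 and 99.3 CPM in WT mice and 39.5 and 50.03 in ΔNFκB mice (-1.16 ± 0.15, adjusted p 0.0298). Ccnb2 was at 37.9 and 29.9 CPM against 12.6 and 16.8 (-1.20 ± 0.19), with an adjusted p of 0.0498, the weakest call among the 68. These were the 5 called members of a group of 15 mitotic cyclins and Cdk1 regulators, of which 12 had a negative log2 fold change (median -0.94). This group and the groups of mitotic, replication, histone and ribosomal genes below were drawn up after the values were seen. Their counts and medians describe them and are not independent evidence.

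Motor proteins of the spindle were the group with the lowest median among those of mitosis. All 13 mitotic kinesins tested were lower in both ΔNFκB libraries than in either WT library, 13 had an unadjusted p under 0.05, and 5 passed the adjusted threshold (median log2 fold change -0.98). Kif20a, which builds the central spindle, was at 40.3 and 35.7 CPM in WT mice and 15.3 and 17.1 in ΔNFκB mice (-1.23 ± 0.15, adjusted p 0.0298). Kif11, which pushes the spindle poles apart, was at 79.0 and 85.3 CPM against 37.8 and 45.5 (-0.98 ± 0.12, adjusted p 0.0298). Kif4, Kif22 and the kinetochore motor Cenpe were the other 3, with log2 fold changes of -1.05, -1.09 and -0.996.

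At the kinetochore, the structure that ties chromosomes to the spindle, 32 of 33 genes tested had a negative log2 fold change and 4 passed the test (median -0.83). Cenpf was at 117 and 119 CPM in WT mice and 48.6 and 57.8 in ΔNFκB mice (-1.15 ± 0.13, adjusted p 0.0298). Knstrn and Spag5, which stabilise that attachment, fell by 1.09 and 0.88 on the log2 scale. Of 9 spindle checkpoint and shugoshin genes, all 9 were negative and 3 passed: Mad2l1, a checkpoint protein that delays anaphase, at -1.12, and the cohesin protectors Sgo1 and Sgo2a at -1.12 and -0.98. The checkpoint target Cdc20 had a log2 fold change of -1.12 ± 0.20 and an adjusted p of 0.0764.

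Of 9 genes of cytokinesis, the last step of division, all 9 were negative and 5 passed (median -0.89). Besides Kif20a these were the spindle bundler Prc1 (-1.02), the contractile ring protein Anln (-1.01), the guanine nucleotide exchange factor Ect2 (-0.87) and Shcbp1 (-1.27). Shcbp1 was at 14.8 and 17.3 CPM in WT mice and 6.94 and 6.35 in ΔNFκB mice. Top2a, which untangles sister chromosomes, was at 249 and 289 CPM against 149 and 143 (-0.88 ± 0.12, adjusted p 0.0373) and was the 1 call among 9 condensin and topoisomerase genes, all 9 of them negative. Ube2c, the ubiquitin-conjugating enzyme of the anaphase-promoting complex, fell by 1.10, and the group of 18 genes around that complex had a median of -0.20.

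The proliferation antigen Mki67, made in all dividing cells, was at 572 and 575 CPM in the WT libraries and at 281 and 311 in the ΔNFκB libraries (-0.95 ± 0.12, adjusted p 0.0298). Other called genes of dividing cells were Cdca3 (-1.29), Aspm, a spindle pole protein (-1.19), Hmmr (-1.09), Melk (-1.06), Cip2a, an inhibitor of the phosphatase PP2A (-1.03), the chromatin protein Hmgb2 (-0.78) and the tubulins Tuba1c (-0.92) and Tuba1b (-0.78). In a list of 26 cell cycle genes all 26 were lower in both ΔNFκB libraries, 24 had an unadjusted p under 0.05 and 11 passed (median -0.94). Summed over the list the level was 1866 and 1971 CPM in WT mice and 950.1 and 1070 in ΔNFκB mice. This count was 0 when WT untreated replicate 2, ΔNFκB untreated replicate 1 or any of the DSS libraries was left out, 5 without ΔNFκB untreated replicate 2 and 9 without WT untreated replicate 1, while the list's median stayed between -1.07 and -0.89.

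**Figure D2:**
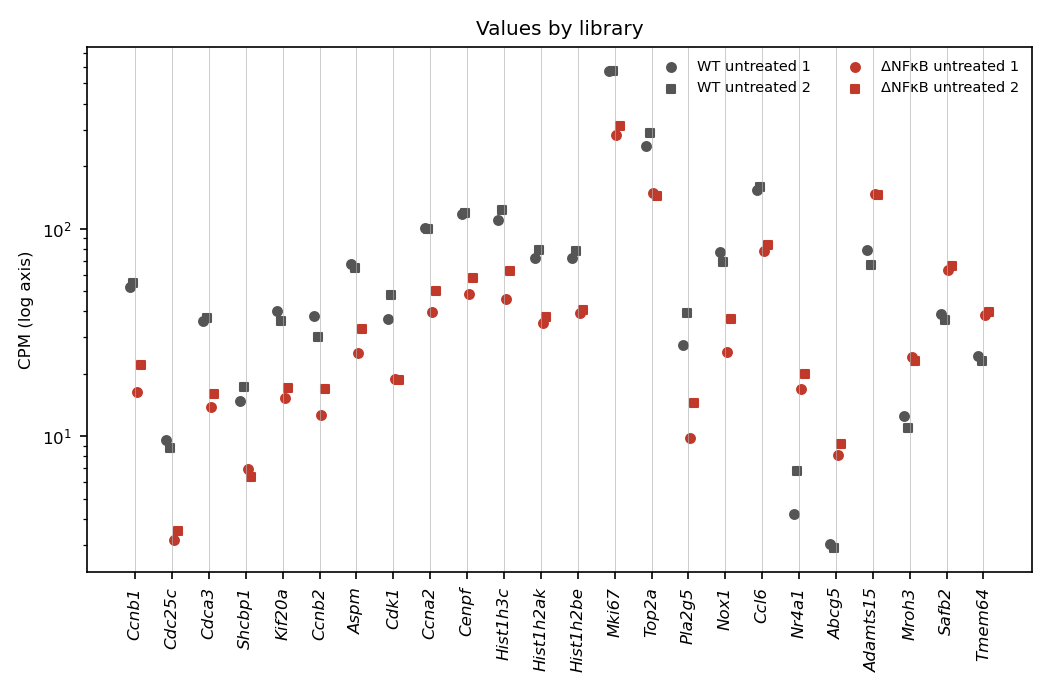
Each point is the CPM of 1 untreated library on a log axis, for 18 lower and 6 higher genes; grey marks the 2 WT mice, red the 2 ΔNFκB mice, circles replicate 1 and squares replicate 2. For each of the 24 genes the 2 red points lie on one side of the 2 grey points, for Ccnb1 at 16.4 and 22.0 CPM below 52.4 and 54.7.

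Genes of DNA replication, nucleotide synthesis and the G1 phase had 0 calls by edgeR, and whether their values differ from those of the mitotic genes was not tested. Of 36 genes of replication licensing and replication forks, 33 were negative with a median of -0.45, with 16 at an unadjusted p under 0.05, 3 called by DESeq2 and 0 by limma-voom. Among these, the flap endonuclease Fen1 was at -0.98 ± 0.20 (adjusted p 0.108), though it shares 84.2% of its exon bases with other genes, and the licensing factor Cdc6 was at -0.97 ± 0.20 (adjusted p 0.116). The 9 nucleotide synthesis genes had a median of -0.41 and 0 edgeR calls (4 at an unadjusted p under 0.05, 2 called by DESeq2, 0 by limma-voom), led by thymidine kinase Tk1 at -0.98 (adjusted p 0.0593). The 13 G1 cyclins, kinases and inhibitors had a median of -0.14 and 0 calls by edgeR, DESeq2 or limma-voom, with 2 at an unadjusted p under 0.05, among them Ccnd1 at -0.54 (adjusted p 0.202).

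The transcription factors that drive these programmes did not pass the test. Of 19 E2F, FoxM1 and Myb-MuvB genes, edgeR, DESeq2 and limma-voom called 0, with 1 lower and 1 higher at an unadjusted p under 0.05, and the median was -0.13. E2f8, a repressor made late in S phase, was at -0.70 ± 0.14 (adjusted p 0.111) and Foxm1, an activator of mitotic genes, at -0.41 ± 0.18 (adjusted p 0.313). For comparison, 20 ribosomal protein genes had a median of -0.17 and 0 calls by the same 3 tools, with 3 at an unadjusted p under 0.05. Of these 20 genes, 19 were negative and 18 were lower in both ΔNFκB libraries, as were 22.7% of all genes. A shared direction without overlap was thus not particular to genes of division.

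**Figure D3:**
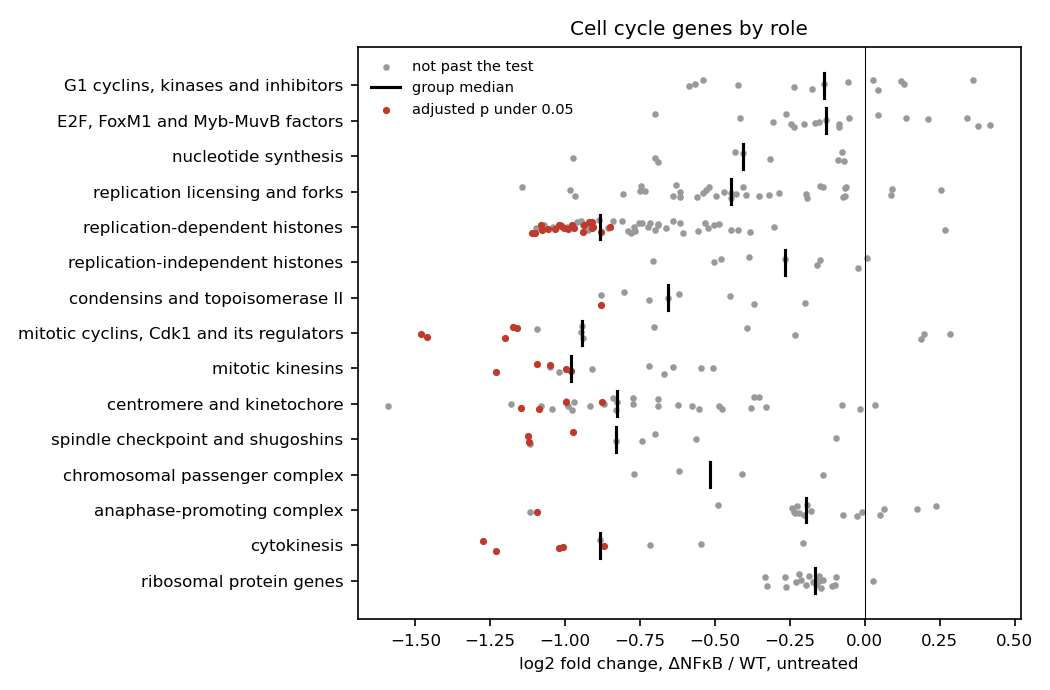
Each point is 1 gene, placed on the x axis by its log2 fold change of ΔNFκB over WT in untreated colon, in rows by role; black bars are row medians and red points passed the adjusted threshold of 0.05. The medians run from -0.13 in the row of E2F, FoxM1 and Myb-MuvB factors to -0.98 in the row of mitotic kinesins. The replication-dependent histone genes lie close together around -0.88. The rows were drawn up after the values were seen.

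Replication-dependent histone genes, which package newly copied DNA and lack a poly(A) tail, formed the other large group. Total RNA was sequenced, so such transcripts could be counted. Of 62 tested, 61 had a negative log2 fold change, 60 were lower in both ΔNFκB libraries, 56 had an unadjusted p under 0.05 and 21 passed (median -0.88). DESeq2 called 42 and limma-voom 23. Of the 21, 19 lie on chromosome 13 and 2 on chromosome 3, where the histone clusters are. The copies are nearly identical in sequence and some overlap other annotated genes, so reads may be split between them and a single copy's value is uncertain. A sum over a histone class does not depend on how reads are split within it.

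All 11 H3 genes tested were lower and 6 passed (median -0.98). Summed over them the level was 845.5 and 921.8 CPM in WT mice and 398.3 and 495.3 in ΔNFκB mice, without overlap. Hist1h3c was at 110 and 123 CPM against 45.7 and 62.2 (-1.11 ± 0.17, adjusted p 0.0482), the largest decrease among the called histone genes, and Hist1h3e at 123 and 137 against 64.5 and 70.9 (-0.94 ± 0.11, adjusted p 0.0298). The 16 H2A genes summed to 574.3 and 607.3 CPM against 299.1 and 350.9, with 7 calls and 1 gene, Hist3h2a, at a positive value of 0.27. Hist1h2ak, one of the 7, was at 72.4 and 79.0 CPM against 35.2 and 37.7 (-1.06 ± 0.11, adjusted p 0.0298).

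The 17 H2B genes summed to 682.8 and 783.9 CPM in WT mice and 387.2 and 463.0 in ΔNFκB mice, with 6 calls. Among these, Hist1h2be was at 71.9 and 77.9 CPM against 39.0 and 40.8 (-0.91 ± 0.10, adjusted p 0.0298). The linker histones H1 (5 genes, 1 call, Hist1h1d at -0.91) and the H4 genes (13 genes, 1 call, Hist1h4f at -0.88) had medians of -0.69 and -0.66. Histones made outside S phase had a median of -0.27 over 9 genes, with 0 calls by edgeR and limma-voom, 1 by DESeq2 and 5 at an unadjusted p under 0.05. The variant H2afz was at 119 and 152 CPM against 86.6 and 79.6 (-0.71 ± 0.14, adjusted p 0.0916).

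Outside the cell cycle, all 20 cholesterol and fatty acid synthesis genes tested had a negative log2 fold change (median -0.53). Of these, 15 had groups that did not overlap, 14 had an unadjusted p under 0.05 and 1 passed the test, with 9 calls by DESeq2. Summed over the list the level was 4371 and 3985 CPM in WT mice against 3195 and 2974. Squalene synthase Fdft1 was at -0.79 ± 0.15 (adjusted p 0.0905), Idi1 at -0.77 ± 0.17 (adjusted p 0.12) and lanosterol synthase Lss at -0.60 ± 0.13 (adjusted p 0.113).

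Nox1, the NADPH oxidase of colon epithelium, which makes superoxide, was at 77.4 and 69.3 CPM in WT mice and 25.6 and 36.5 in ΔNFκB mice (-1.24 ± 0.18, adjusted p 0.0411). The secreted phospholipase Pla2g5 was at 27.5 and 39.3 CPM against 9.78 and 14.4 (-1.47 ± 0.22, adjusted p 0.0411). The chemokine Ccl6 was at 153 and 158 CPM against 77.8 and 83.5 (-0.95 ± 0.10, adjusted p 0.0298). Slfn9 (-0.90), the growth factor carrier Fgfbp1 (-0.89) and the glutathione transferase Gstm2 (-0.69, the smallest decrease called) were also called, as were a pair of related genes described next.

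Mettl7a2 and Mettl7a3, neighbouring copies of a methyltransferase-like gene on chromosome 15, had counts in WT mice and none in ΔNFκB mice. Mettl7a2 had 43 and 54 counts in the WT libraries and 0 and 0 in the ΔNFκB libraries, and Mettl7a3 had 36 and 40 against 0 and 0. Taking 3 counts over the group as the limit that a count of 0 allows, they were at least 29.4-fold and at least 23.1-fold lower (adjusted p 0.0298 and 0.0482), a limit that covers counting error only. The third copy, Mettl7a1, was counted at 1053 and 1043 reads in WT mice and 877 and 878 in ΔNFκB mice. The copies are close in sequence, so reads could be split between them. After DSS the 4 libraries held 1 to 4 counts of Mettl7a2, in both genotypes, too few to show a difference.

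The 7 higher genes shared no list. Nr4a1, an orphan nuclear receptor and immediate early gene, had the largest increase, at 4.23 and 6.84 CPM in WT mice and 17.0 and 19.9 in ΔNFκB mice (1.73 ± 0.25, adjusted p 0.0383), or 3.31-fold. It was the 1 call among 20 immediate early genes, of which 15 had a positive value (median 0.24). Abcg5, which pumps sterols out of cells, was at 3.03 and 2.88 CPM against 8.12 and 9.19 (1.55 ± 0.23, adjusted p 0.0424).

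Adamts15, a protease of the extracellular matrix, was at 79.2 and 66.5 CPM in WT mice and 146 and 145 in ΔNFκB mice (1.0003 ± 0.12, adjusted p 0.0298). Mroh3 (0.999), the nuclear scaffold protein Safb2 (0.78), Tmem64 (0.72) and the predicted gene Gm37320 (1.32) were the others. With only male mice in the comparison, 4 of these 7 passed the test, and all 7 stayed higher with an unadjusted p under 0.05 under every alternative, a direction that the choice of genes without overlap largely fixes.

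The same genes were examined in DSS-treated mice, where more genes differed by genotype: 1457 genes (8.32%) were higher in ΔNFκB mice and 2042 (11.7%) lower. The genotype effect with DSS differed from that without DSS for 3102 genes (17.7%). Of the 61 genes lower without DSS, 60 passed this test of the difference, as did all 7 higher genes. Since these genes were chosen by their untreated values, which also enter the difference, the count describes them and is not independent evidence. With 1 library left out the number of genes in all with a difference ranged from 489, without ΔNFκB DSS replicate 2, to 3669, without WT untreated replicate 1.

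Of the 40 lower genes that are not histones, 33 were higher in ΔNFκB mice after DSS and 0 were lower by edgeR, with a median of 0.68. Ccnb1 after DSS was at 33.7 and 34.2 CPM in WT mice and 46.5 and 55.9 in ΔNFκB mice (0.59 ± 0.16, adjusted p 0.0338), so the order of the genotypes was the opposite of that without DSS. Mki67 was at 374 and 351 CPM against 560 and 604. The largest turn was in Nox1, at 25.9 and 21.3 CPM against 119 and 138 after DSS (2.44 ± 0.19, adjusted p 0.00108).

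Of the 21 histone genes that fell without DSS, 2 were higher (Hist1h1d and Hist1h2bb), 1 was lower (Hist2h2bb) and 18 were neither after DSS, with a median of 0.11. Hist1h3c was then at 69.4 and 65.5 CPM in WT mice and 77.0 and 60.3 in ΔNFκB mice, overlapping. Hist2h2bb, all of whose exon bases are shared with another gene, was the 1 lower gene whose genotype effect did not pass the test of the difference (-1.08 without and -0.80 after DSS). Whether the mitotic and histone groups differ from each other was not tested.

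**Figure D4:**
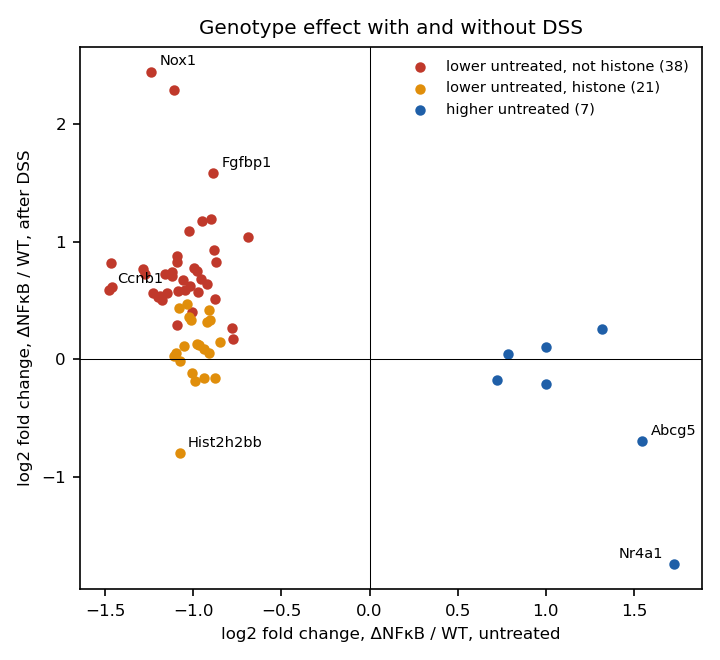
Each point is 1 of the genes that differed by genotype in untreated colon, with its log2 fold change of ΔNFκB over WT in untreated mice on the x axis and after DSS on the y axis; Mettl7a2 and Mettl7a3 are left out. Red points, the lower genes that are not histones, lie above 0 after DSS, orange histone genes lie near 0 with Hist2h2bb at -0.80, and Nr4a1 goes from 1.73 to -1.74.

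Markers of other cells in the tissue were read beside the proliferation result. Smooth muscle contractile genes summed to 10220 and 5462 CPM in the WT libraries and 8410 and 8676 in the ΔNFκB libraries, and fibroblast genes to 4225 and 2267 against 3439 and 3600, so the 2 WT samples differed more from each other than from the ΔNFκB samples. The cell cycle list differed little between those 2 WT samples (1866 and 1971 CPM). Adipocyte markers summed to 156.7 and 339.0 CPM in WT mice and 177.6 and 157.6 in ΔNFκB mice. Of 11 adipocyte markers tested, 8 were lower in both ΔNFκB libraries (median -2.40), led by Adipoq at 27 and 159 counts against 3 and 6 (-4.12 ± 0.86, adjusted p 0.123). Neither edgeR nor limma-voom called any of the 11, DESeq2 called 2, and 7 had an unadjusted p under 0.05. T and NK cell markers were highest in ΔNFκB untreated replicate 1, at 68.14 CPM, against 9.925 in replicate 2 and 11.98 and 19.79 in WT mice. Their part in the other results was not tested.

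Among lists of epithelial lineages edgeR called 1 gene, in the goblet cell list. Crypt base stem cell genes had a median of 0.20 over 14 genes, with 0 calls by edgeR and limma-voom, 1 higher by DESeq2 and 1 at an unadjusted p under 0.05, the crypt transcription factor Sox9 (0.80 ± 0.21, adjusted p 0.17). Of these 14 genes, 6 were higher in both ΔNFκB libraries and 0 were lower in both, against 22.5% and 22.7% of all genes. The list summed to 885.5 and 743.7 CPM in WT mice and 898.2 and 872.7 in ΔNFκB mice, so the sums overlapped. Its relation to the lower level of division genes was not tested. Goblet cell genes had 16 of 20 negative values (median -0.44), 13 lower in both ΔNFκB libraries, 9 at an unadjusted p under 0.05 and 1 call, Ccl6, with 5 calls by DESeq2 and 1 by limma-voom. The list summed to 20380 and 28270 CPM in WT mice and 17100 and 18700 in ΔNFκB mice, without overlap. The disulfide isomerase Agr2, which folds mucins, was at 567 and 743 CPM against 383 and 366 (-0.81 ± 0.15, adjusted p 0.0905), and Spink4 and the trefoil peptide Tff3 had values of -0.95 and -0.62 (adjusted p 0.119 and 0.186).

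All 14 enteroendocrine genes tested had a negative value (median -0.34), with 0 calls by edgeR and limma-voom, 1 by DESeq2 and 3 at an unadjusted p under 0.05. The hormone Gcg was at 20.8 and 20.6 CPM in WT mice and 11.4 and 10.9 in ΔNFκB mice (-0.89 ± 0.21, adjusted p 0.145), and Insl5 at 74.7 and 63.2 against 33.8 and 22.3 (-1.30 ± 0.35, adjusted p 0.171). Absorptive colonocyte genes had a median of -0.31 over 23 genes, with 0 calls by edgeR and limma-voom, 1 by DESeq2, and 3 lower and 1 higher at an unadjusted p under 0.05. The 20 nuclear genes of the respiratory chain were all negative (median -0.28), 16 of them lower in both ΔNFκB libraries, with 0 calls by edgeR, DESeq2 and limma-voom and 11 at an unadjusted p under 0.05.

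Genes of the pathways linked to NAIL did not pass the test in untreated colon. No label gives a symbol for mouse NAIL, and Gm16685 was read as that gene from general knowledge. It had 3 and 20 counts in the WT libraries and 3 and 4 in the ΔNFκB libraries (-1.51 ± 0.89, adjusted p 0.439). It lies at chr3:7612705-7690001 on the plus strand in mm10. At 3 counts in the lower WT library the groups touched, and the value rested on WT untreated replicate 2, without which it was 0.19. Its neighbour Il7, a cytokine gene on the other strand, had 124 and 285 counts against 100 and 163 (-0.46 ± 0.36, adjusted p 0.562), and became 0.07 without the same library. Without strand information, reads where these genes overlap cannot be assigned to either.

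Of 15 NF-κB subunit and inhibitor genes, edgeR, DESeq2 and limma-voom called 0, and 2 were higher at an unadjusted p under 0.05 (median 0.05). Rela was at 28.6 and 30.7 CPM in WT mice and 30.0 and 33.5 in ΔNFκB mice (0.10 ± 0.12, adjusted p 0.729), and Nfkb1 at 63.4 and 62.3 against 65.5 and 74.3 (0.15 ± 0.12, adjusted p 0.547). Ikbkb, a kinase that activates NF-κB, was at 48.1 and 55.2 CPM against 61.8 and 63.9 (0.28 ± 0.11, adjusted p 0.257). Of 23 NF-κB response cytokines and enzymes tested, the same tools called 0, with 0 at an unadjusted p under 0.05 (median 0.02). Tnf had 3 and 22 counts in WT mice and 10 and 5 in ΔNFκB mice, Il1b had 14 and 37 against 23 and 8, and Il6 had 1 count in the 4 libraries together, so a difference in these cytokines was not detectable at this depth.

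Ppm1d, which encodes Wip1, was at 8.14 and 9.59 CPM in WT mice and 10.5 and 11.4 in ΔNFκB mice (0.30 ± 0.17, adjusted p 0.416). The p38 kinase gene Mapk14 was at 74.0 and 75.5 CPM against 95.1 and 76.6 (0.20 ± 0.12, adjusted p 0.459). Over 20 genes of the p38 pathway the median was 0.09, with 0 calls by edgeR, DESeq2 and limma-voom and 0 at an unadjusted p under 0.05. These transcript levels do not measure kinase or phosphatase activity.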

How the data were processed

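The authors sequenced total RNA of distal colon (TruSeq Total RNA, HiSeqX, paired reads of 150 bases, per the labels' protocols). The submitters' processing notes name HISAT2 2.1, SAMtools 1.8, featureCounts, Subread 1.6.2 and mm10; the annotation release, strand setting and handling of multi-mapped reads were not given in the sources used here. The deposited values are expected counts per gene without normalization, and 18.8% of nonzero values were not whole (exact equality). They were rounded to whole numbers, as the plan provided for values that are not whole. Symbols on more than 1 line were summed. Gene positions are from GENCODE M21 and promoters from RefSeq (GRCm38.p6).

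Groups came from the labels. Counts were filtered with filterByExpr, scaled with TMM factors (0.882 to 1.15) and fitted with edgeR 4.0.16 (R 4.3.3), glmQLFit and glmQLFTest, on 4 group means with 4 residual degrees of freedom; p-values were two-sided and Benjamini-Hochberg adjusted, threshold 0.05. SEs were computed as |log2 fold change| over the square root of F, and the biological coefficient of variation came to 17.1%. In 1 untreated library 3 counts equal 0.201 to 0.244 CPM. The limits given for Mettl7a2 and Mettl7a3 cover counting error only, whereas the SEs include the fitted spread between mice. The labels do not say how the mice of a group were related. The fit was tested on simulated data. Sex was read from Ddx3y, Eif2s3y, Kdm5d and Uty, as male above a sum of 5 CPM.

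Genes named were the 12 largest changes and 6 smallest p in each direction among called genes whose average log2 CPM exceeded 1 and whose groups did not overlap (predicted genes, antigen receptor segments and sex-linked transcripts excepted), at most 4 genes per list described, by p, and Gm16685, Il7, Ppm1d, Mapk14, Rela, Nfkb1, Tnf, Il6, Il1b, Xist and Ddx3y. The other called genes, the histone genes named within a class, Mettl7a1 and the colon markers are named outside this rule. Some genes that the rule picks are not reported here. The comparison and the lists were chosen with earlier results of these data known. The groups of mitotic, replication, histone and ribosomal genes were drawn up after the values were seen. As alternatives, DESeq2 1.42.0, limma-voom (limma 3.58.1), RLE and upper quartile factors, 2 other filters, the untreated libraries alone, a replicate block, a sex term, a gene set without antigen receptor, mitochondrial or ribosomal RNA genes, and fits without each single library were run. In the last of these the lone mouse of a group is assumed to vary like the others. Xist and Ddx3y are given with the limits.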

Additional observations from a re-analysis of the deposited data

Results flagged for a closer look

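The genotype effect in untreated mice and that in DSS-treated mice differed for 21 of the genes named for largest change or smallest p and reported here. This is by the test of the difference itself, in the fit of all 8 libraries. Genes named only from lists are not counted in the 21. The difference (log2 fold change after DSS minus that without DSS) was 3.68 for Nox1, 2.29 for Pla2g5 and 2.12 for Ccl6. Among genes of mitosis it was 2.07 for Ccnb1, 2.08 for Cdc25c, 2.06 for Cdca3, 2.00 for Shcbp1, 1.88 for Ccna2, 1.79 for Kif20a, 1.73 for Ccnb2, 1.72 for Aspm, 1.71 for Cenpf and 1.68 for Cdk1. It was smaller for the histone genes, 1.17 for Hist1h2ak and 0.96 for Hist1h2be, and negative for the genes that were higher without DSS: -3.47 for Nr4a1, -2.24 for Abcg5, -1.21 for Adamts15, -0.89 for Mroh3, -0.89 for Tmem64 and -0.74 for Safb2. All of these were chosen by their untreated values, which enter the difference, so a pull towards the opposite sign is built into it. DSS libraries were all from females and 3 of the 4 untreated ones from males, so DSS and sex cannot be told apart in the difference. Groups of 2 allowed no test for outlying samples.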

How the results depend on the processing

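The number of genes called without DSS (68, with 7 higher and 61 lower) was within 1.5 times of that under RLE and upper quartile factors, limma-voom, a CPM filter and without antigen receptor, mitochondrial and ribosomal RNA genes. It rose to 265 with DESeq2 (41 higher, 224 lower), 330 with no count filter (72 and 258) and 176 with a sex term (14 and 162). It was 0 (0 and 0) in edgeR with the untreated libraries alone, where 1925 genes had an unadjusted p under 0.05. With a replicate block edgeR also gave 0 (0 and 0), with 2824 genes at an unadjusted p under 0.05 and 3038 with a difference of the genotype effects. Among the 61 lower genes, Mettl7a2 and Mettl7a3 left out, the lowest adjusted p with that block was 0.0514. The labels' numbers are shared but nothing ties same-numbered mice together: their deviations from the group means correlated at -0.107 over the 2 untreated pairs. With 1 library left out the calls ranged from 0 to 200, the higher from 0 to 15 and the lower from 0 to 189, and the genes with a difference of the genotype effects from 489 to 3669; why a left-out DSS library ends all calls was not tested. No scaling moved the median log2 fold change of all genes by more than 0.1. Some values, none of them called, changed sign with 1 library left out. Gm16685 (-2.24 to 0.19), Il7 (-0.91 to 0.068), Il1b (-1.51 to 0.12) and Tnf (-1.31 to 1.26) were each highest without WT untreated replicate 2. Rela (-0.011 to 0.15) was lowest without ΔNFκB untreated replicate 2. The Y-linked Ddx3y ranged from -0.067, without WT untreated replicate 1, to 12.45, without replicate 2. With a sex term Ddx3y was at -0.039, against 0.95 in the main fit. Il6 ranged from -2.85 to 0.00, the latter without WT untreated replicate 2. Xist, at -9.02 (adjusted p 0.171), follows the 1 female.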

Other observations

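Clock, interferon and stress response genes did not pass the test in edgeR. Over all genes tested, 22.7% were lower in both ΔNFκB libraries, and 8.22% were lower and 7.94% higher at an unadjusted p under 0.05. Of 19 circadian clock genes, 17 had a positive log2 fold change in untreated ΔNFκB mice (median 0.21), 5 had an unadjusted p under 0.05, and 0 passed in edgeR or limma-voom, with 2 called by DESeq2. The clock repressor Cry2 was at 20.0 and 20.2 CPM in WT mice and 33.4 and 42.1 in ΔNFκB mice (0.91 ± 0.22, adjusted p 0.141). Per2 was at 22.4 and 26.7 CPM against 36.2 and 44.5 (0.72 ± 0.20, adjusted p 0.171). Per1, which oscillates strongly over the day, was at 11.6 and 27.6 CPM against 38.3 and 53.1, so its 2 WT mice were also far apart (1.21 ± 0.33, adjusted p 0.172).

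Of 32 interferon response genes, 24 had a negative value (median -0.23), 11 were lower in both ΔNFκB libraries and 7 had an unadjusted p under 0.05, while 0 passed in edgeR or limma-voom and 4 in DESeq2. The ubiquitin-like protein Isg15 had 44 and 83 counts in WT mice and 16 and 13 in ΔNFκB mice (-1.96 ± 0.48, adjusted p 0.15). Zbp1, a sensor of nucleic acids, was at 11.7 and 28.4 CPM against 6.07 and 6.83 (-1.64 ± 0.40, adjusted p 0.15).

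Genes of the endoplasmic reticulum stress response had 13 of 17 negative values (median -0.27) and 7 at an unadjusted p under 0.05, with 0 calls in edgeR and limma-voom and 3 in DESeq2. Their regulator Xbp1 was at 185 and 240 CPM in WT mice and 147 and 149 in ΔNFκB mice (-0.52 ± 0.14, adjusted p 0.166), and the disulfide isomerase Pdia6 at 152 and 181 against 111 and 99.2 (-0.66 ± 0.13, adjusted p 0.0905).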
